A study of Mus musculus with 4 samples.

Results

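Megakaryocytes are the large polyploid cells that shed platelets, and in the mouse they reside in the spleen as well as in bone marrow. As they mature they fill alpha-granules with adhesive proteins and chemokines, place receptors in the granule membrane, and extend proplatelets along coils of microtubules. The 9 genes described here encode products of these steps: the granule chemokines Pf4 and Ppbp, the adhesive granule proteins Vwf, Thbs1 and Mmrn1, the granule membrane proteins Selp and Treml1, the platelet beta-tubulin Tubb1 and the G protein regulator Rgs18. They were picked by gene symbol, and all 9 were found among the 23763 genes of the deposited expression table.

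Spleens of C57BL/6J mice were sampled at baseline, and their RNA was depleted of ribosomal RNA and sequenced as directional libraries. There were 2 libraries labelled KLHL3-KI, for a knock-in of Klhl3, and 2 labelled wild-type (WT). The design compares these 2 genotypes. The Klhl3 product hands substrates to a ubiquitin ligase built on CUL3. Allele design, age and sex were not stated in the sources used, and nothing states that the libraries come from separate animals, so p values measure only the spread between these libraries, which may be technical. Klhl3 itself, whose level is no check of a knock-in of unstated design, was read 23 and 14 times in the KLHL3-KI libraries and 27 and 45 times in the WT libraries.

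Values are scaled read counts, meaning reads divided by 1 factor per library, which the authors deposited as normalized counts. The reads behind them numbered 9586677 and 10933023 in KLHL3-KI replicates 1 and 2 and 8535483 and 8975415 in WT replicates 1 and 2. Fold changes are differences on the scale log2(value + 1), KLHL3-KI minus WT, with a standard error (SE), and adjusted p values are from limma with Benjamini-Hochberg adjustment over the 16970 genes whose mean value was at least 1. Where 1 library is left out, its group keeps a single library that adds no spread of its own and is assumed to vary like the other group, so a call kept or lost there is a description of these libraries. The B cell marker Ms4a1 and the red pulp macrophage factor Spic, both typical of spleen, stood at 313 to 605 and at 92.9 to 116 in the 4 libraries.

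Promoter sequences were available for 6 of the 9 genes in the RefSeq table of build GRCm38.p6, namely Pf4, Ppbp, Mmrn1, Selp, Treml1 and Tubb1, and each covers 250 bases before to 50 bases after the annotated start. The 4 below are shown because Ppbp and Pf4 are neighbours with log2 fold changes of 1.53 and 1.51, and because Pf4, Selp and Tubb1 hold a searched motif. Capitals mark AGATAA, a form of the GATA factor motif, or AGGAAG, a form of the ETS factor motif (CTTCCT where it lies on the opposite strand), and the motifs do not overlap.
Ppbp promoter, GRCm38.p6 chr5:90768268-90768567, plus strand: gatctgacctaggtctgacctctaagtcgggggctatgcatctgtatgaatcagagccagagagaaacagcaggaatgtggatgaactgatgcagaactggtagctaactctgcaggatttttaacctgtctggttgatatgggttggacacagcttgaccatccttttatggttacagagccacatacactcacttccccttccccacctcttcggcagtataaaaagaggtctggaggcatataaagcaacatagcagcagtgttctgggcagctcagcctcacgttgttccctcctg
Pf4 promoter, GRCm38.p6 chr5:90772185-90772484, plus strand: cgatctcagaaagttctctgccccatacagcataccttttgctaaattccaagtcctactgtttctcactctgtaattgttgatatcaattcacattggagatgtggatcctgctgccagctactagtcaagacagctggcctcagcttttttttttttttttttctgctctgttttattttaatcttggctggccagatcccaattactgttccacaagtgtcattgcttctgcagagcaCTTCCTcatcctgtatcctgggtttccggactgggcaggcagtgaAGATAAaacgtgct
Selp promoter, GRCm38.p6 chr1:164115014-164115313, plus strand: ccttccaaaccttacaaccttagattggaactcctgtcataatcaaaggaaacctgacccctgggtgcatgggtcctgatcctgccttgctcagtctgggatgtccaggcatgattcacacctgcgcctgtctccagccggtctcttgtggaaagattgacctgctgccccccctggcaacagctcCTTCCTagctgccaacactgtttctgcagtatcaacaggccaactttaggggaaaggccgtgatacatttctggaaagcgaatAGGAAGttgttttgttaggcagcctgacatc
Tubb1 promoter, GRCm38.p6 chr2:174450345-174450644, plus strand: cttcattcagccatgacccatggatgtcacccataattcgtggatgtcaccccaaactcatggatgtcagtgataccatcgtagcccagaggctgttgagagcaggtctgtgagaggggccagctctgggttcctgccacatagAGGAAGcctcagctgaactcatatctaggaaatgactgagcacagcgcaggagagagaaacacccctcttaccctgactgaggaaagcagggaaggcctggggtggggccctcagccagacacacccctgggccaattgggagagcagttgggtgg
The starts of Ppbp and Pf4 lie 3917 bases apart on the same strand. AGATAA, searched on both strands, was found in 1 of the 6 promoters (Pf4), against 11.2% of the 32851 promoters of the table. AGGAAG was found in 3 of the 6, against 35.4% of all promoters. TGAGTCA, the core shared by NF-E2 and AP-1 sites, was in none of the 6 and in 5.2% of all promoters. A match describes letters in this window and is not a binding site.

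All 9 genes rose in KLHL3-KI spleen, with log2 fold changes from 0.58 (Rgs18) to 1.63 (Thbs1) and a median of 1.16. Across all tested genes the median was -0.01, and 15.2% rose at an adjusted p of 0.05. For each of the 9 genes both KLHL3-KI values lay above both WT values, which held in that direction for 32.8% of all tested genes. With edgeR 9 of the 9 rose, against 14.9% of all tested genes, and with DESeq2 8, against 12.7%. None of the 9 fell, against 7.56% of all genes with limma. In bulk RNA, more cells of a type and more RNA per cell cannot be told apart.

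**Figure D1:**
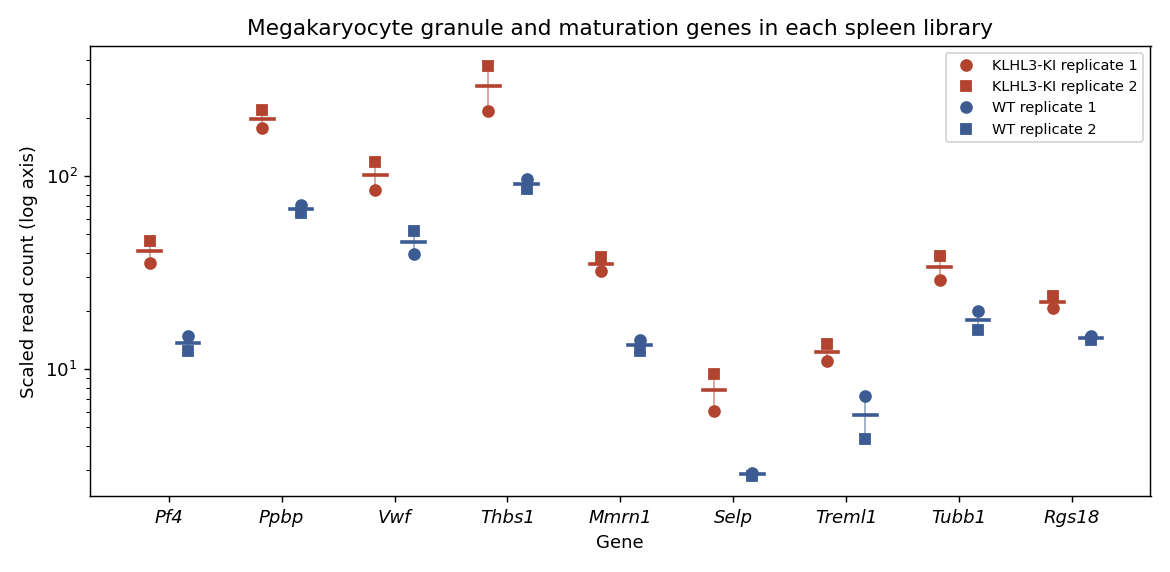
Scaled read count (log axis) of the 9 genes in each library, with red symbols for KLHL3-KI, blue symbols for WT, circles for replicate 1, squares for replicate 2 and bars for the mean of 2 libraries. The KLHL3-KI symbols lie above the WT symbols for every gene, and in each gene the KLHL3-KI square lies above the circle.

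The chemokine genes Pf4 and Ppbp rose to nearly the same extent. Pf4 (ENSMUSG00000029373), platelet factor 4, which is stored in alpha-granules and binds heparin, had values of 35.6 and 46.1 in KLHL3-KI spleen against 14.9 and 12.5 in WT spleen. Its level averaged 40.8 ± 7.42 in KLHL3-KI and 13.7 ± 1.71 in WT (SD, n = 2 each), a log2 fold change of 1.51 (limma adjusted p = 0.000116, SE 0.16). Ppbp (ENSMUSG00000029372), pro-platelet basic protein, the precursor of a neutrophil-attracting chemokine, had values of 177 and 219.8 in KLHL3-KI spleen against 71.2 and 64.0 in WT spleen. The lower KLHL3-KI value of each gene lay well above the higher WT value.
Ppbp averaged 198.6 ± 29.97 in KLHL3-KI and 67.6 ± 5.03 in WT (SD, n = 2 each), with a log2 fold change of 1.53 (limma adjusted p = 1.78e-05, SE 0.12). The ratio of Ppbp to Pf4 within a library was 4.99 and 4.77 in KLHL3-KI and 4.78 and 5.14 in WT, so the groups overlapped (exact two-sided permutation p = 0.667).

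These genes lie in the cluster of CXC chemokine genes. Next to Ppbp in the RefSeq order is Cxcl5, a neutrophil chemokine, which rose as well, at 6.28 and 9.25 in KLHL3-KI against 0.895 and 0.623 in WT (57 and 95 reads in KLHL3-KI, 8 and 6 in WT; log2 fold change 2.30, limma adjusted p = 0.000132, SE 0.24). Cxcl1 of the same cluster rose by 1.303 (SE 0.27) on 17 and 24 reads in KLHL3-KI and 1 and 4 in WT, and did not pass without WT replicate 1 (limma adjusted p = 0.0625). The nearest measured genes outside the chemokines, chosen for their position, were Rassf6 at 2.10 in KLHL3-KI and 3.93 in WT (log2 fold change -0.69, limma adjusted p = 0.0673) and Mthfd2l at 6.70 in KLHL3-KI and 6.03 in WT (0.13, 0.644). Of 7 tested CXC genes other than Pf4 and Ppbp, Cxcl5 and Cxcl1 rose, where 15.2% of all tested genes rose. Both reached the minimum mean of 1 only through the KLHL3-KI libraries (WT means 0.759 and 0.264), so their calls are only a description. With a minimum mean of 5, 0 rises were called in this family. The B cell attractant Cxcl13 fell by 0.51 (limma adjusted p = 0.0450, SE 0.16) and was not called without KLHL3-KI replicate 2, WT replicate 1 or WT replicate 2 (0.191, 0.291 and 0.0813). The other 4, Cxcl9, Cxcl10, Cxcl12 and Cxcl16, had log2 fold changes from -0.23 to -0.05 and did not pass.

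Among the adhesive proteins, Thbs1 had the largest log2 fold change of the 9 genes, and Vwf the smallest of the 5 secreted products. Thbs1 (ENSMUSG00000040152), thrombospondin 1, a matrix glycoprotein bound by CD36 and CD47, had values of 217 and 370.3 in KLHL3-KI spleen against 96.4 and 86.0 in WT spleen. KLHL3-KI replicate 2 stood 1.70 times above replicate 1, the widest gap within the KLHL3-KI group among the 9 genes. The mean was 294 ± 108 in KLHL3-KI and 91.2 ± 7.35 in WT (SD, n = 2 each; log2 fold change 1.63, limma adjusted p = 0.000384, SE 0.20), and with a robust variance model the call was lost (adjusted p = 0.0659). The other thrombospondins did not pass: Thbs2, Thbs3 and Thbs4 had log2 fold changes of -0.17, -0.33 and -0.47, and 0 of the 3 passed with limma (0 at an unadjusted p under 0.05, and 0 with edgeR or DESeq2).

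Vwf (ENSMUSG00000001930), von Willebrand factor, which tethers platelets through glycoprotein Ib and is made by megakaryocytes and endothelium, had values of 85.0 and 117.8 in KLHL3-KI spleen against 39.5 and 51.7 in WT spleen. It averaged 101.4 ± 23.2 in KLHL3-KI and 45.6 ± 8.62 in WT (SD, n = 2 each), a log2 fold change of 1.13 (limma adjusted p = 0.00126, SE 0.17). It was the only one of the 9 genes with a higher value in WT replicate 2 than in WT replicate 1.
Mmrn1 (ENSMUSG00000054641), multimerin 1, which carries factor V in alpha-granules, had values of 32.2 and 38.2 in KLHL3-KI spleen against 14.2 and 12.4 in WT spleen. The groups were well apart, with means of 35.2 ± 4.25 in KLHL3-KI and 13.3 ± 1.31 in WT (SD, n = 2 each; log2 fold change 1.34, limma adjusted p = 0.000129, SE 0.14). Its cargo gene F5 rose by 1.28 (limma adjusted p = 0.000397, SE 0.16), at 55.4 and 65.1 in KLHL3-KI against 28.5 and 20.4 in WT. Within the EMILIN family of Mmrn1, Emilin2 rose by 1.94 (limma adjusted p = 1.88e-05, SE 0.15), while the endothelial Mmrn2 had 32.4 ± 2.74 in KLHL3-KI and 38.4 ± 0.0945 in WT (SD, n = 2 each; -0.24, limma adjusted p = 0.162). Emilin1 rose by 0.43 (limma adjusted p = 0.0255, SE 0.12) and was not called without KLHL3-KI replicate 2, WT replicate 1 or WT replicate 2 (0.137, 0.180 and 0.0829).

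The granule membrane genes Selp and Treml1 rested on the fewest reads of the 9. Selp (ENSMUSG00000026580), P-selectin, the receptor that reaches the surface of activated platelets and endothelium and binds PSGL-1 on leukocytes, had values of 6.06 and 9.45 in KLHL3-KI spleen against 2.91 and 2.80 in WT spleen. These values rest on 55 and 97 reads in KLHL3-KI and 26 and 27 reads in WT. Its log2 fold change was 1.16 (limma adjusted p = 0.00585, SE 0.23), and the call was lost without WT replicate 2 (adjusted p = 0.0635).
Treml1 (ENSMUSG00000023993), TREM-like transcript 1, a receptor kept in the alpha-granule membrane until activation, had values of 11.0 and 13.5 in KLHL3-KI spleen against 7.27 and 4.36 in WT spleen. WT replicate 2 stood at 0.599 times WT replicate 1, on 42 and 65 reads, the widest gap within the WT group among the 9 genes. The log2 fold change was 0.99 (limma adjusted p = 0.0119, SE 0.23), and it was not called without WT replicate 2 (adjusted p = 0.104). Trem1 and Trem3, myeloid activating receptors of the same family, rose by 1.73 (SE 0.20) and 1.81 (SE 0.26). Trem3 reached the minimum mean of 1 only through the KLHL3-KI libraries (WT mean 0.931). Treml2 and Treml4 did not pass (-0.26 and 0.04), and with equal total reads 1 fall was called in this family.

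Tubb1 and Rgs18 had the smallest fold changes of the 9 genes. Tubb1 (ENSMUSG00000016255), the beta-1 tubulin of the platelet marginal band, had values of 28.9 and 38.8 in KLHL3-KI spleen against 19.9 and 16.0 in WT spleen. The means were 33.8 ± 7.004 in KLHL3-KI and 17.9 ± 2.78 in WT (SD, n = 2 each), and the log2 fold change of 0.87 (limma adjusted p = 0.00512, SE 0.17) lost its call without WT replicate 2 (0.0786). Of the other beta-tubulins, Tubb4b rose by 1.38 (SE 0.13) and Tubb5 by 0.75 (SE 0.10), both used widely by other cells. Tubb2a rose by 0.38 and Tubb2b fell by 0.62, with limma adjusted p values of 0.0409 and 0.0425. Tubb2a was not called when any of the 4 libraries was left out, with adjusted p from 0.0662 to 0.241, and Tubb2b was not called without KLHL3-KI replicate 2, WT replicate 1 or WT replicate 2 (0.107, 0.245 and 0.0705).
Rgs18 (ENSMUSG00000026357), which shortens G protein signalling in platelets and other blood cells, had values of 20.8 and 23.9 in KLHL3-KI spleen against 14.9 and 14.2 in WT spleen. The replicates lay close together in both groups, at 22.3 ± 2.15 in KLHL3-KI and 14.5 ± 0.467 in WT (SD, n = 2 each). Its log2 fold change of 0.58 (limma adjusted p = 0.0133, SE 0.14) was not called without KLHL3-KI replicate 2, WT replicate 1 or WT replicate 2 (0.0737, 0.0676 and 0.103) or with DESeq2 (0.0618). Among 7 tested relatives of the R4 family, Rgs1 rose by 1.21 (SE 0.14). Rgs3 and the germinal centre gene Rgs13 fell by 0.51 and 1.09, and neither was called without WT replicate 1 (0.0632 and 0.0927) or WT replicate 2 (0.168 and 0.0660), nor Rgs3 without KLHL3-KI replicate 2 (0.0791).

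**Figure D2:**
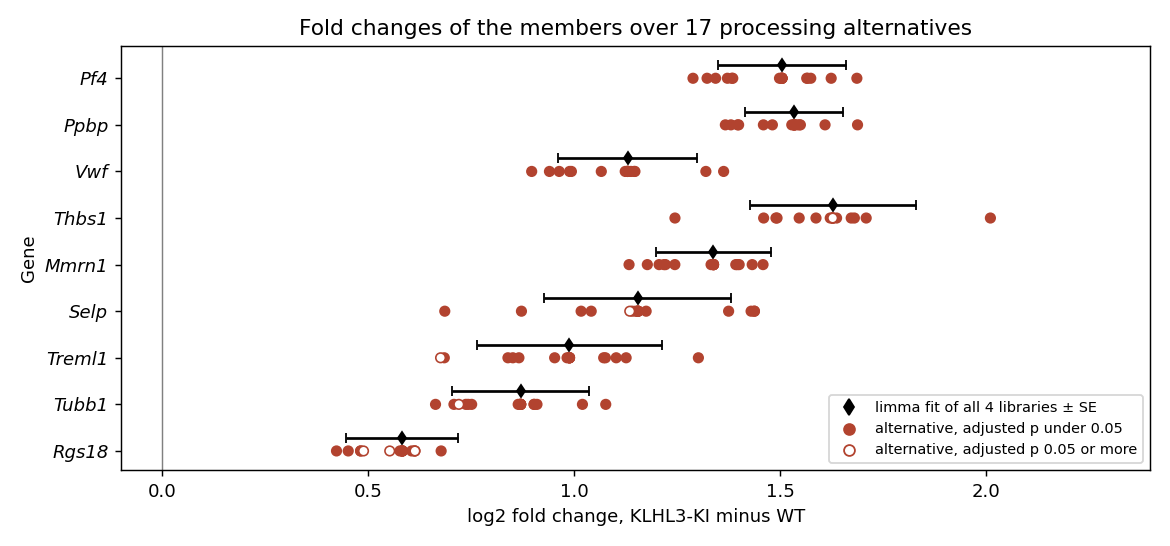
Log2 fold change, KLHL3-KI minus WT, of each of the 9 genes. Black diamonds with bars are the limma estimate ± SE over all 4 libraries, and circles are the 17 processing alternatives, filled where the adjusted p was under 0.05. All circles lie above 0, and open circles occur for Selp, Treml1, Tubb1, Rgs18 and, for the robust variance model, Thbs1.

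Leaving out WT replicate 2 left 5 of the 9 calls, those of Pf4, Ppbp, Vwf, Thbs1 and Mmrn1, and in that comparison 8.17% of all tested genes rose. Over all 9 genes and the 17 alternatives, 145 of 153 adjusted p values were under 0.05 and all 153 fold changes were positive. With equal total reads per library, where the median over all tested genes was -0.16, the median of the 9 was 1.02.

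Each gene was also set against Pf4 in the same library, which removes the scaling between libraries. Only 133 and 120 WT reads stand behind Pf4 itself. Of the 8 ratios 3 overlapped between the genotypes and 5 did not, and none could pass a test with these numbers of libraries. The share of all tested genes whose ratio to Pf4 did not overlap was not computed, so the count of 5 is only a description. Pf4, the denominator of all 8, had a larger log2 fold change (1.51) than each of the 5 genes without overlap. Their lower ratios restate that difference. Tubb1 stood at 0.811 and 0.841 times Pf4 in KLHL3-KI libraries and at 1.34 and 1.28 times in WT libraries. Rgs18 stood at 0.585 and 0.518 times Pf4 in KLHL3-KI libraries and at 1.00 and 1.14 times in WT libraries. The groups did not overlap for these genes, nor for Vwf (2.39 and 2.56 in KLHL3-KI against 2.65 and 4.15 in WT), Treml1 (0.310 and 0.294 in KLHL3-KI against 0.489 and 0.350 in WT) and Mmrn1 (0.904 and 0.829 in KLHL3-KI against 0.955 and 0.992 in WT), each lower in KLHL3-KI. The ratios of Ppbp, Thbs1 and Selp overlapped between the groups. With 2 against 2 libraries the exact two-sided permutation test cannot go below p = 0.333, which was its value for the 5 ratios without overlap, and it was 0.667 for Ppbp and Selp and 1 for Thbs1 (8 ratios compared, so none can pass an adjustment).

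**Figure D3:**
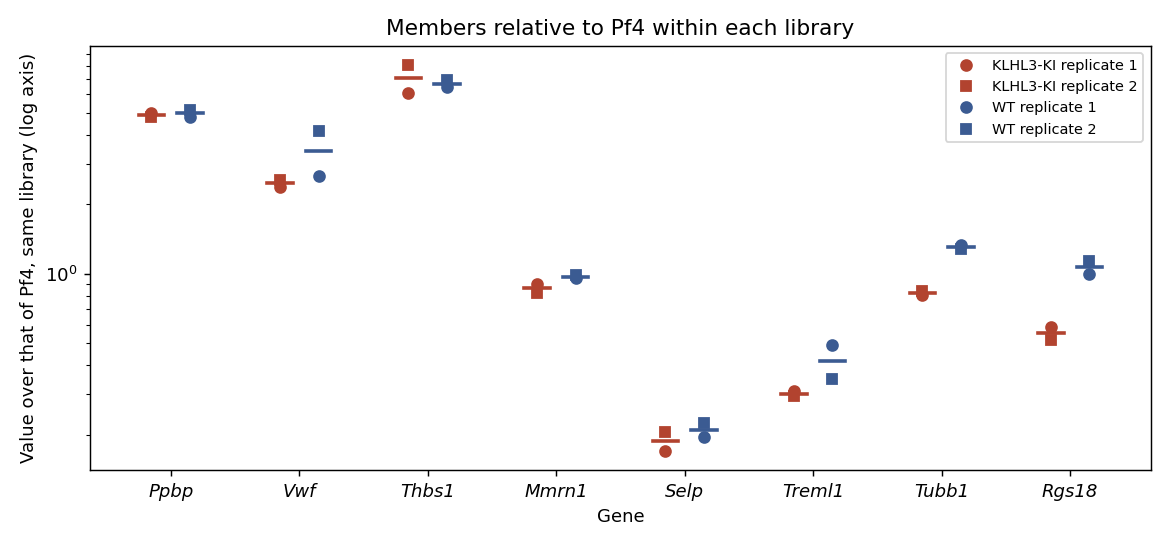
Value of each gene divided by that of Pf4 in the same library (log axis), with red symbols for KLHL3-KI, blue symbols for WT, circles for replicate 1, squares for replicate 2 and bars for means of 2 libraries. Tubb1 and Rgs18 lie lower in both KLHL3-KI libraries than in both WT libraries, while the Ppbp symbols of the groups intermix.

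Levels between genes were compared per kilobase of annotated exon, a length that ran from 0.721 kb for Pf4 to 16.1 kb for Vwf. On this scale Ppbp led in both genotypes, with 183 ± 27.7 per kb in KLHL3-KI and 62.4 ± 4.64 in WT (SD, n = 2 each, as for all levels here). Pf4 followed with 56.6 ± 10.3 in KLHL3-KI and 19.0 ± 2.38 in WT, and Thbs1 with 48.4 ± 17.8 in KLHL3-KI and 15.02 ± 1.21 in WT. Next came Tubb1 with 24.0 ± 4.98 in KLHL3-KI and 12.8 ± 1.98 in WT, then Rgs18 with 11.0 ± 1.06 in KLHL3-KI and 7.16 ± 0.230 in WT. Treml1 had 8.76 ± 1.27 in KLHL3-KI and 4.15 ± 1.47 in WT, Vwf 6.31 ± 1.44 in KLHL3-KI and 2.84 ± 0.537 in WT, and Mmrn1 5.99 ± 0.725 in KLHL3-KI and 2.26 ± 0.224 in WT. Selp was lowest, with 1.76 ± 0.543 in KLHL3-KI and 0.647 ± 0.0170 in WT. The order of the means was the same in both genotypes. Values of neighbours in that order overlapped in KLHL3-KI for Pf4 and Thbs1 and for Vwf and Mmrn1, and in WT for Treml1 and Vwf. Exons of Selp overlap opposite-strand transcripts Gm16548 and Gm16587, and those of Thbs1 overlap Gm29233, and whether reads were counted by strand is not given in the sources used here.

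Together the 9 genes took 0.0582% and 0.0824% of all reads in the KLHL3-KI libraries against 0.0294% and 0.0283% in the WT libraries, a mean of 0.0703% ± 0.0172 and 0.0289% ± 0.000784 (SD, n = 2 each; 2.43 times higher, exact two-sided permutation p = 0.333). The KLHL3-KI libraries lay above the WT libraries but differed from each other by far more than the WT pair. Thbs1 held the largest part of these reads, and without it the share was 0.0426% ± 0.00712 in KLHL3-KI and 0.0192% ± 0.000174 in WT (SD, n = 2 each; 2.22 times higher), an alternative added after seeing the data.

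KLHL3-KI replicate 2 exceeded KLHL3-KI replicate 1 for all 9 genes, with a median ratio of 1.295, against 54.4% of all tested genes and a median ratio of 1.02. The same library was higher for 17 of 17 erythroid, 14 of 14 cell division and 15 of 16 neutrophil markers, and for 7 of 21 endothelial and 2 of 15 lymphocyte markers. Among other platelet genes it was higher for 19 of 27 receptor and signal genes and 11 of 17 transcription factors. The counts were 12 of 20 for cytoskeleton, 10 of 19 for granule assembly and 8 of 16 for other cargo. WT replicate 2 exceeded WT replicate 1 for 1 of the 9 genes (Vwf) and for 0 of 17 erythroid markers, against 48.2% of all tested genes.

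Other platelet genes rose in part. Of 99 tested genes in 5 lists for other granule cargo, granule assembly, platelet receptors, megakaryocyte transcription factors and proplatelet cytoskeleton, 35 rose and 10 fell with limma, with a median log2 fold change of 0.08. Of all tested genes 15.2% rose and 7.56% fell, so the share of the 99 that fell was near that of all genes. Equal total reads gave 33 rises and 20 falls, where 11.3% of all tested genes rose and 18.4% fell, and leaving out WT replicate 2 gave 27 rises and 4 falls, where 8.17% of all tested genes rose and 1.57% fell. The lists were written from general knowledge with earlier results of these data known.

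Of 27 platelet receptor and signal genes, 14 rose and 4 fell (median 0.58). The fibrinogen receptor subunits rose, Itgb3 to 145 and 201 in KLHL3-KI against 80.4 and 69.1 in WT (log2 fold change 1.19, SE 0.15) and Itga2b to 57.9 and 78.7 in KLHL3-KI against 30.9 and 33.3 in WT (1.05, SE 0.14). The ADP receptor P2ry1 rose by 1.58 (SE 0.21) and Gp9, a subunit of the Vwf receptor, by 1.27 (SE 0.16), all 4 with limma adjusted p from 0.000398 to 0.000767. Plek, a protein kinase C substrate also present in leukocytes, did not pass (0.24, adjusted p = 0.115), and the phospholipase Plcg2, which B cells use as well, fell by 0.61 (limma adjusted p = 0.00181, SE 0.10).
Of 16 genes listed as other cargo, 5 rose and 1 fell (median 0.12). The list is not limited to granule contents and also holds membrane genes such as Slc6a4 and Lamp1. Where in the cell the products lie was not measured. Coagulation factor XIII A (F13a1) rose by 1.68 (SE 0.13), at 48.6 and 50.6 in KLHL3-KI against 16.2 and 13.5 in WT, and the metalloproteinase inhibitor Timp3 by 0.64 (SE 0.09). The serotonin transporter Slc6a4 rose by 1.17 (SE 0.23) and the chaperone clusterin (Clu) fell by 0.54 (SE 0.11). Neither was called without WT replicate 1 (0.0552 and 0.0827) or WT replicate 2 (0.0648 and 0.0624). The lysosomal membrane gene Lamp1 did not pass (0.11, adjusted p = 0.459).
Of 19 granule assembly genes, 3 rose and 1 fell (median 0.01), shares near the 15.2% and 7.56% of all tested genes. Rab27b, a GTPase of dense granule secretion, rose to 16.0 and 23.9 in KLHL3-KI against 5.93 and 6.54 in WT (log2 fold change 1.51, limma adjusted p = 0.000545, SE 0.20). The SNARE genes Stx11 and Snap23 rose by 0.58 and 0.49 and Hps3, a subunit of a lysosome-related organelle complex, fell by 0.49. None of these 3 was called without WT replicate 2 (0.0854, 0.202 and 0.0689), nor Snap23 without KLHL3-KI replicate 2 (0.0791) or with equal total reads (0.0750). Ap3b1, a subunit of the AP-3 adaptor, stood at 84.5 ± 0.173 in KLHL3-KI and 83.7 ± 2.07 in WT (SD, n = 2 each).

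Of 17 megakaryocyte transcription factors, 7 rose and 2 fell (median 0.18). Tal1 rose by 2.84 (SE 0.15), Gata1 by 2.80 (SE 0.15), Gfi1b by 2.65 (SE 0.15) and Nfe2 by 2.54 (SE 0.12). These 4 are shared with red cell precursors, whose 17 listed markers all rose with a median of 2.65 and took 0.926% ± 0.0905 of reads in KLHL3-KI and 0.209% ± 0.0301 in WT (SD, n = 2 each). Fli1 and Ets1, which are also expressed in lymphocytes, fell by 0.49 (SE 0.09) and 0.63 (SE 0.10), while 14 of 15 lymphocyte markers fell. The part of these cells in the values of the shared factors was not tested.
Of 20 cytoskeletal genes, 6 rose and 2 fell (median -0.01). The alpha-tubulin Tuba4a rose to 187 and 253 in KLHL3-KI against 80.6 and 63.4 in WT (log2 fold change 1.59, limma adjusted p = 7.59e-05, SE 0.15), vinculin (Vcl) rose by 1.04 (SE 0.14) and tropomyosin Tpm1 by 0.55 (SE 0.09). The abundant genes of non-muscle myosin Myh9 and filamin Flna did not pass (-0.24 and -0.13).
Of 14 genes for binding partners of the 9 products, 5 rose and 1 fell (median 0.09), where 15.2% of all tested genes rose and 7.56% fell. F5, Itgb3 and Gp1ba, among those that rose, were already counted in the platelet lists above. The Ppbp receptor Cxcr2, which neutrophils carry, rose by 1.24 (SE 0.15), and the Thbs1 receptor Cd47 by 0.53 (SE 0.10; not called without WT replicate 2, limma adjusted p = 0.0720). Cd36, also a Thbs1 receptor, had 256 in KLHL3-KI and 216 in WT (log2 fold change 0.25, adjusted p = 0.0840), and Selplg, the P-selectin ligand, had 146 in KLHL3-KI and 155 in WT (-0.09, 0.545), both named after their values were seen.

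**Figure D4:**
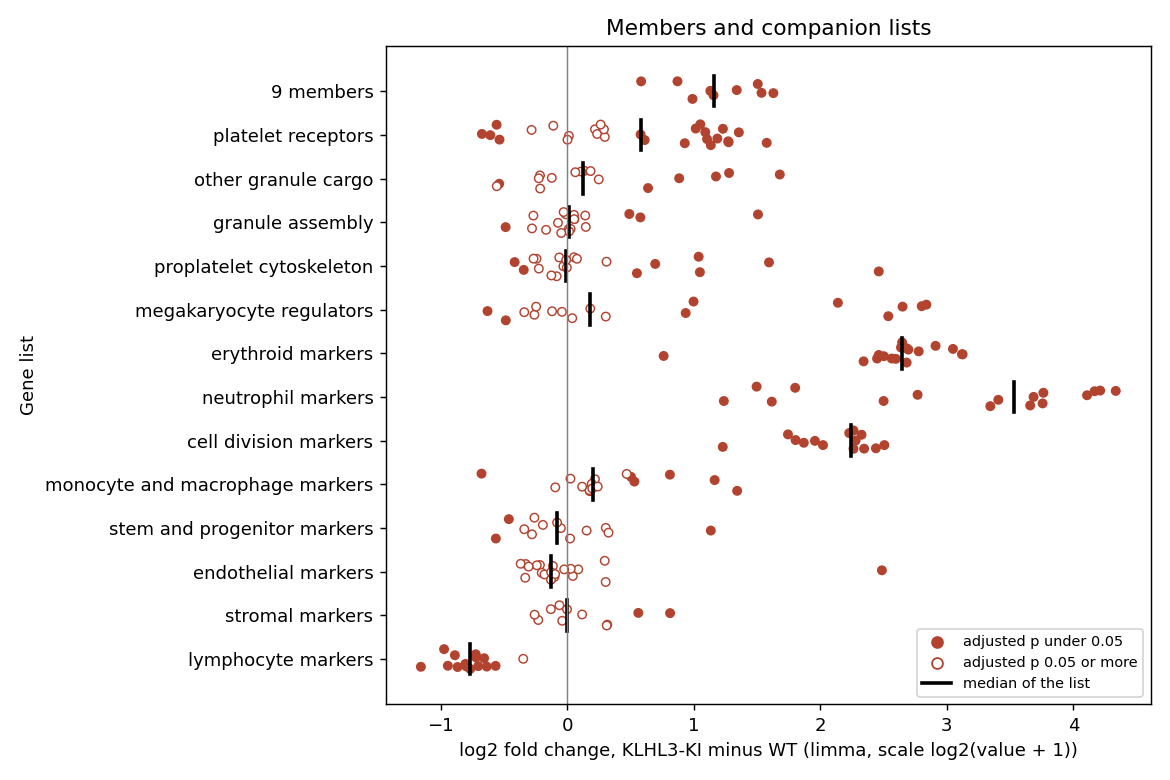
Log2 fold change, KLHL3-KI minus WT, of every tested gene of the 9 members and of 13 companion lists, filled where the limma adjusted p was under 0.05, with a bar at each median. The 9 members lie between 0.58 and 1.63, right of most endothelial and stromal markers and left of most erythroid and neutrophil markers.

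Several of the 9 genes are also made by other cells of the spleen, and the markers of those cells did not all move the same way. Of 21 endothelial markers, relevant to Vwf, Selp, Thbs1 and Mmrn1, 1 rose and 0 fell with limma (median -0.13). Of all tested genes 15.2% rose and 7.56% fell. At an unadjusted p under 0.05, 2 of the markers were lower, and edgeR and DESeq2 also called 1 rise and 0 falls. With equal total reads 5 of them fell, near the 18.4% of all tested genes that fell under that scaling, and without KLHL3-KI replicate 1 3 fell, where 1627 of 16970 genes fell. Quantile normalization also gave 5 falls, where 2369 of all genes fell. So did removal of haemoglobin, immunoglobulin and mitochondrial genes, where 2970 fell. With the replicate number as a block 1 marker fell, where 1415 of all genes did. The endothelial list took 0.104% and 0.0936% of reads in KLHL3-KI against 0.120% and 0.128% in WT. Pecam1 stood at 163 and 150.3 in KLHL3-KI against 193 and 172 in WT, and the sinusoidal scavenger receptor Stab2 at 281 and 219.6 in KLHL3-KI against 302 and 324 in WT. The marker that rose was Ackr1 (log2 fold change 2.49, SE 0.21), which encodes the Duffy antigen and is known from red cell precursors as well as venules.
Of 13 tested stem and progenitor markers, Slamf1 and Flt3 fell by 0.57 and 0.46, and neither was called without KLHL3-KI replicate 2 (0.264 and 0.0510) or without WT replicate 1 (0.229 and 0.237), nor Slamf1 without WT replicate 2 (0.174). Kit, the stem cell factor receptor, did not pass (0.15, limma adjusted p = 0.404). The list took 0.0298% ± 0.000226 of reads in KLHL3-KI and 0.0351% ± 0.00113 in WT (SD, n = 2 each). A share of reads does not use the deposited scaling of the fold changes. With that scaling the summed values nearly touched, at 313 and 319 in KLHL3-KI against 343 and 319.8 in WT.
Of 17 monocyte and macrophage markers, relevant to Thbs1, 5 rose and 1 fell (median 0.20). Of all tested genes 15.2% rose and 7.56% fell. Fewer of these markers were called without WT replicate 2. Itgam rose by 1.16 (SE 0.16) and Ccr2 by 0.81 (SE 0.12). The lipopolysaccharide coreceptor Cd14 had 45.7 and 85.1 in KLHL3-KI against 24.2 and 23.9 in WT. Its call was lost with a robust variance model (limma adjusted p = 0.0960), under which some neutrophil markers lost theirs too. Cd14 was also not called without WT replicate 2 (log2 fold change 1.33). Lyz2, the lysozyme gene of these cells, did not pass (0.02). All 16 neutrophil markers rose (median 3.53), though some reached the minimum mean of 1 only through the KLHL3-KI libraries. Of the 16, 12 rose with the robust variance model and 14 with a minimum mean of 5. The 16 markers took 0.179% ± 0.0377 of reads in KLHL3-KI and 0.0174% ± 0.00663 in WT (SD, n = 2 each). Of 11 tested stromal markers 2 rose, a share near the 15.2% of all tested genes. They were Tagln (0.56) and Cnn1 (0.81). Cnn1 was not called without KLHL3-KI replicate 1 or WT replicate 2 (log2 fold changes of 0.69 and 0.50). The part of these cells in the 9 genes was not tested.

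The genes outside all lists whose values ran closest to the mean profile of the 9 over the 4 libraries, among 4135 named genes with a mean of at least 50, were Tfdp1, Pitrm1, Hdgf, Lmnb1 and Kcnn4. Their root mean square distances from that profile were 0.0426 to 0.0581 on the log2 scale. Kcnn4, a calcium-activated potassium channel, had 92.1 and 113.9 in KLHL3-KI against 44.4 and 43.8 in WT, and Tfdp1, a partner of E2F factors, had 93.7 and 127 in KLHL3-KI against 47.2 and 45.6 in WT. With 4 libraries in 2 groups, such likeness says only that the values of both replicates sit at similar distances.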

How the data were processed

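Spleen RNA was measured in 2 KLHL3-KI and 2 WT libraries, grouped by sample title; columns were assigned to samples through their library names. Per the submitters' processing notes, Trimmomatic 0.38, Bowtie2, RSEM 1.3.0, edgeR and build GRCm39 were used, in roles not stated. The deposited table holds a normalized signal, which the authors call normalized counts. Every value was a whole multiple of its library's smallest value (100% within 0.001 of a whole read), so whole reads were recovered; 1 read was worth 0.0974 to 0.112. Precision is limited by 8535483 to 10933023 reads per library and by n = 2.

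Symbols came from an annotation of GRCm38 and 23605 of 23763 identifiers had one; exon lengths are unions from GENCODE M21 of the same build. Values with a mean of at least 1 were tested as log2(value + 1) with limma 3.58.1 in R 4.3.3 (two-sided with a variance trend; threshold of 0.05 after Benjamini-Hochberg adjustment), a pseudocount that understates changes of low genes. Recovered reads were also tested with edgeR 4.0.16 (TMM, quasi-likelihood) and DESeq2 1.42.0. The fits were also run on simulated counts with a fixed dispersion and added rises only. Those settings are simpler than these data, so that run does not bear on the calls here. Shares and ratios used exact permutation tests over libraries. Other alternatives were the pseudocount, the filter, 4 scalings, the variance model, a replicate block and leaving out each library. The members and lists were chosen with earlier results of these data known. Named were all members, all tested relatives, from each further list the called genes (the 4 of lowest p where more than 4 passed) and the 2 most abundant, and the 5 genes nearest the members' profile, except where the text says otherwise; some named genes are summarised in counts. A few genes that this rule names are not reported here.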

Additional observations from a re-analysis of the deposited data

How the results depend on the processing

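Every alternative kept the direction of all 9 genes, and 9 were called in 12 of 17, 8 with DESeq2, a robust variance model, without KLHL3-KI replicate 2 or without WT replicate 1, and 5 without WT replicate 2. Their median log2 fold change was 1.38 with a pseudocount of 0.1, 1.39 with edgeR and 1.40 with DESeq2, and ran from 0.90 to 1.44 with 1 library left out. The difference in their share of reads, 0.0414 percentage points, was 0.0234 without Thbs1 and 0.0293 to 0.0536 with 1 library left out. Over all genes 2583 rose and 1283 fell. The falls numbered 2369 when quantiles were equalized, 3126 with equal total reads and 2970 with haemoglobin, immunoglobulin and mitochondrial genes removed, beside 2041, 1914 and 2090 rises and medians over all genes of -0.10, -0.16 and -0.14. They numbered 781 with DESeq2 and 659 without a variance trend. With 1 library left out, rises ran from 1386 to 2903 and falls from 267 to 1627. In the 5 platelet lists, the 10 falls became 19, 20, 18 and 6 with quantile normalization, equal totals, those genes removed and no variance trend, and 4 to 9 with 1 library left out. The cause of these moves was not tested. The replicate numbers share no stated source, and same-numbered libraries did not deviate together (correlation -0.03); with the replicate number as a block, 2715 genes rose, 1415 fell and all 9 were called. Of 76 named genes called outside the 9, 20 lost the call with some library left out. Reads per gene limit Selp and Treml1 most, at 26 to 139 reads per library.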
